A study of Mus musculus with 11 samples.

Results

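A panel of 34 marker genes of radial glia and astrocytes was followed in neurospheres (neural progenitors grown as floating balls) prepared from embryonic mouse brain at E15.5. The genes were picked by name from the 53453 gene rows of the deposited table, and all 34 were found there by their Ensembl identifiers. By role they fall into 7 progenitor genes, 10 astrocyte genes of the cell membrane, 9 secreted astrocyte products, 5 astrocyte enzymes and metabolic proteins, and 3 genes linked to the reactive state. Of these, 28 reached 1 TPM in at least 5 libraries and were tested. TPM, a transcript count scaled by gene length and library total, is a length-corrected share of a library, so levels of different genes can be compared. The compared groups were 5 libraries with Klf5 overexpression and 6 control libraries with no treatment, each taken as 1 embryo. The sources used here do not say how Klf5 was overexpressed, in which cells, or in which strain. Both groups were cultured as neurospheres.

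Radial glia are the stem cells of the embryonic brain. They line the ventricle, carry the intermediate filament proteins nestin and vimentin, and first make neurons and later glia. Astrocytes arise from them around birth and then acquire water channels, gap junctions, ion pumps and secreted lipid carriers, while injury pushes mature astrocytes into a reactive state marked by glial fibrillary acidic protein. Neurospheres grown in mitogens keep many radial glial genes and can form astrocytes when the mitogens are withdrawn. Klf5 is a zinc finger transcription factor that binds GC-rich and CACCC-like DNA.

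The panel held genes that rose and genes that fell, and 3 of its 5 role classes held both. Of the 28 tested genes, 7 passed limma's test at 0.05 after Benjamini-Hochberg adjustment, beside 3.72% of all 13549 genes tested. Vim, Mlc1, Sparcl1 and Aqp1 rose (2.29% of all genes rose) and Ednrb, Pla2g7 and Vcam1 fell (1.43% fell). The groups did not overlap for 4 of the 28, beside 3.29% of all genes. Their median log2 fold change was -0.26, against -0.04 over all tested genes. Aqp1, Pla2g7 and Vcam1 entered the test mainly through the group in which they were high. Aqp1 reached 1 TPM in 5 overexpression and 0 control libraries, Pla2g7 in 1 overexpression and 6 control libraries, and Vcam1 in 2 overexpression and 6 control libraries. The panel was also chosen with earlier results of these data known, so these counts are read as a description. Without overexpression library 1 the panel held 1 higher and 6 lower genes, Aqp1 then missing the filter.

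**Figure D1:**
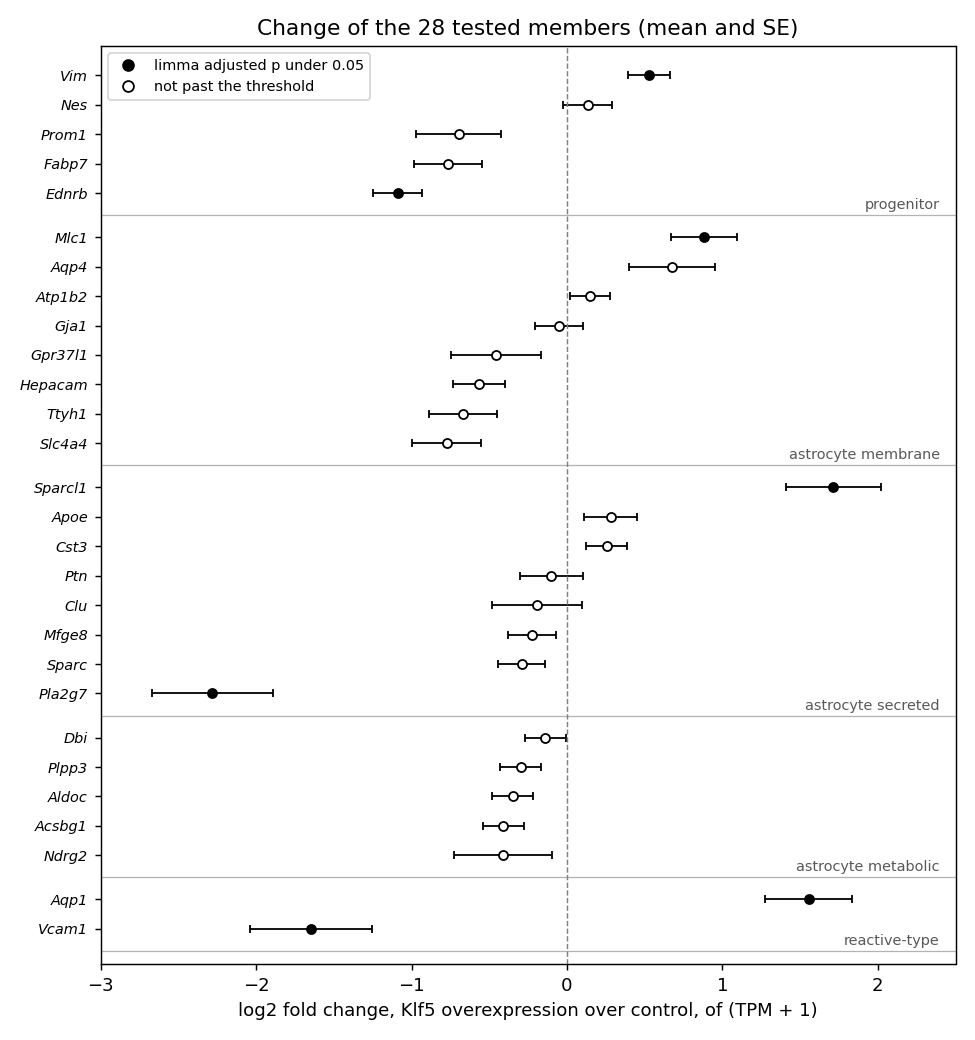
Log2 fold changes (Klf5 overexpression over control, on the log2(TPM + 1) scale) of the 28 tested genes, ordered within each role, with horizontal bars for the SE. Filled points passed the limma threshold: Vim, Mlc1, Sparcl1 and Aqp1 lie to the right of 0 and Ednrb, Pla2g7 and Vcam1 to the left.

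Since the overexpressed protein binds DNA, the stretch just before the start site is shown for the 5 changed genes that have an entry in the RefSeq promoter table of GRCm38.p6. Each is the 250 bases before the RefSeq start, 5′ to 3′ on the strand of the gene, and capitals mark any KLF-type match (GGGNGTGG) or GC box (GGGCGG) on either strand. The windows are chr2:13574061-13574310 (plus strand) for Vim, chr15:88978554-88978803 (minus) for Mlc1, chr6:55336049-55336298 (plus) for Aqp1, chr14:103843702-103843951 (minus) for Ednrb and chr17:43568201-43568450 (plus) for Pla2g7.
Vim: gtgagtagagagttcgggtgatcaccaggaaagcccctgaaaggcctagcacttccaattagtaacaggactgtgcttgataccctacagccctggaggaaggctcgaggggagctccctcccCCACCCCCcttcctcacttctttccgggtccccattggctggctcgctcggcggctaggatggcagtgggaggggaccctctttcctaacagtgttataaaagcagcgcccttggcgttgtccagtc
Mlc1: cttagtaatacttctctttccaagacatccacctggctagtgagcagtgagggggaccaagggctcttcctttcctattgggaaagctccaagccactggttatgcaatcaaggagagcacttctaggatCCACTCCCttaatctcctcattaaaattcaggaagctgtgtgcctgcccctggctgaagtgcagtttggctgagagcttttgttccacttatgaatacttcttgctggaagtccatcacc
Aqp1: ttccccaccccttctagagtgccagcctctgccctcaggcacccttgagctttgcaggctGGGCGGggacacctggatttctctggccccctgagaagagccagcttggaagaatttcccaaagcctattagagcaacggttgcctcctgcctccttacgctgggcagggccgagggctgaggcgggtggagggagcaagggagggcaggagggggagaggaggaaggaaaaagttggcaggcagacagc
Ednrb: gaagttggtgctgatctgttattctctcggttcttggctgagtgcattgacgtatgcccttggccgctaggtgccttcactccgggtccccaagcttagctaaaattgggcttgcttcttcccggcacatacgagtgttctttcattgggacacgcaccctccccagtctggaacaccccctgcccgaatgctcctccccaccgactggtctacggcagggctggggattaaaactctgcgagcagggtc
Pla2g7: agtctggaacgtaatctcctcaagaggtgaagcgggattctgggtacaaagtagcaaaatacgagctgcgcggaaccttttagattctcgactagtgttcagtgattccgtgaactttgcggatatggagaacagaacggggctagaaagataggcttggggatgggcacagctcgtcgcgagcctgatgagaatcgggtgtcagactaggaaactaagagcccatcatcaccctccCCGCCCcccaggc

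Vim and Mlc1 each held 1 KLF-type match, on the strand opposite to the gene, and Aqp1 and Pla2g7 each held 1 GC box. The Ednrb window held neither. The RefSeq start lay 133 bases upstream of the GENCODE edge of Aqp1, and 384, 454, 701 and 353 bases inside the GENCODE gene for Vim, Mlc1, Ednrb and Pla2g7, so the annotations place these starts differently. Promoter entries were found for 29 of the 34 genes, 38 windows in all. A KLF-type match stood in 18.4% of these windows and in 15.9% of all 32851 promoter windows of the same length, and a GC box in 28.9% of the windows of the panel and in 32.7% of all windows. An 8-letter KLF-type match cannot contain a GC box. The STAT element TTCNNNGAA, of the kind through which cytokines drive astrocyte genes, stood in 13.2% of the windows of the panel and in 7.02% of all windows, and among the printed windows in that of Pla2g7. The nuclear factor I palindrome was in 0 of the 38 windows and in 12 of all windows. The STAT and nuclear factor I elements read the same on both strands. A match is a string of letters in a window and no record of binding.

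Klf5 itself separated the groups, at 53.6 to 93.0 TPM in overexpression libraries and 0.371 to 1.29 TPM in controls. The rows given added up to 730832 to 821967 TPM per overexpression library and 814208 to 846780 TPM per control library. This difference in the listed total is carried by every TPM value below, and the 7 called genes kept their direction under trimmed-mean and quantile scaling. Defining genes of non-neural cell types were low. Of 15 microglial genes, 7, among them Aif1, Cx3cr1 and C1qa, were at 0 in every library. Endothelial genes summed to 1.06 to 2.43 TPM with overexpression and 1.10 to 2.86 TPM in controls. Mural and mesenchymal genes summed to 3.13 to 7.02 TPM with overexpression and 2.68 to 14.3 TPM in controls, and 1 of 3 tested, Myl9, fell. Myl9 reached 1 TPM in 0 overexpression and 5 control libraries and met the filter through the controls alone. Its call, made in 5 of 13 other settings, is read as a description. Oligodendrocyte lineage genes, led by Olig1, summed to 1829 to 2233 TPM with overexpression and 1780.1 to 3102 TPM in controls. Of the 10 tested, 1 passed, which was Cspg4, the NG2 proteoglycan of oligodendrocyte precursors and pericytes. Cspg4 averaged 123 ± 22.7 TPM with overexpression and 45.7 ± 8.07 TPM in controls (SD over 5 and 6 libraries; log2 fold change 1.40 ± 0.15 SE, limma adjusted p = 3.58e-05), and its part in the values of the panel was not tested. Neuronal genes, led by Map2, summed to 385 to 505 TPM with overexpression and 406 to 598 TPM in controls, and 1 of 16 tested, Mapt, rose. The Mapt call was made in 8 of 20 other settings. In bulk libraries such as these, fewer cells of a type and less RNA per cell cannot be told apart.

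The progenitor genes Fabp7 and Vim led the panel in level, and Gfap, Gjb6 and Agt were at or near 0. Fabp7, a fatty acid binding protein of radial glia, had the highest mean in both groups, averaging 2105 ± 553 TPM in the 5 overexpression libraries and 3596 ± 1073 TPM in the 6 controls (SD). Vim, the secreted heparin-binding factor Ptn, the acyl-CoA binding protein Dbi and Nes followed in that order in both groups. These 5 genes made up 74.7 to 82.1% of the summed TPM of the panel in overexpression libraries and 78.8 to 83.5% in controls. At the other end, Gfap, the filament of mature and reactive astrocytes, was at 0 to 0.571 TPM with overexpression and at 0 to 0.082 TPM in controls. The connexin Gjb6 was listed at 0 in 10 of 11 libraries, and Agt, angiotensinogen, in 8 of 11. The panel as a whole took 0.834 to 1.02% of the listed TPM of an overexpression library and 0.822 to 1.30% of that of a control library.

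**Figure D2:**
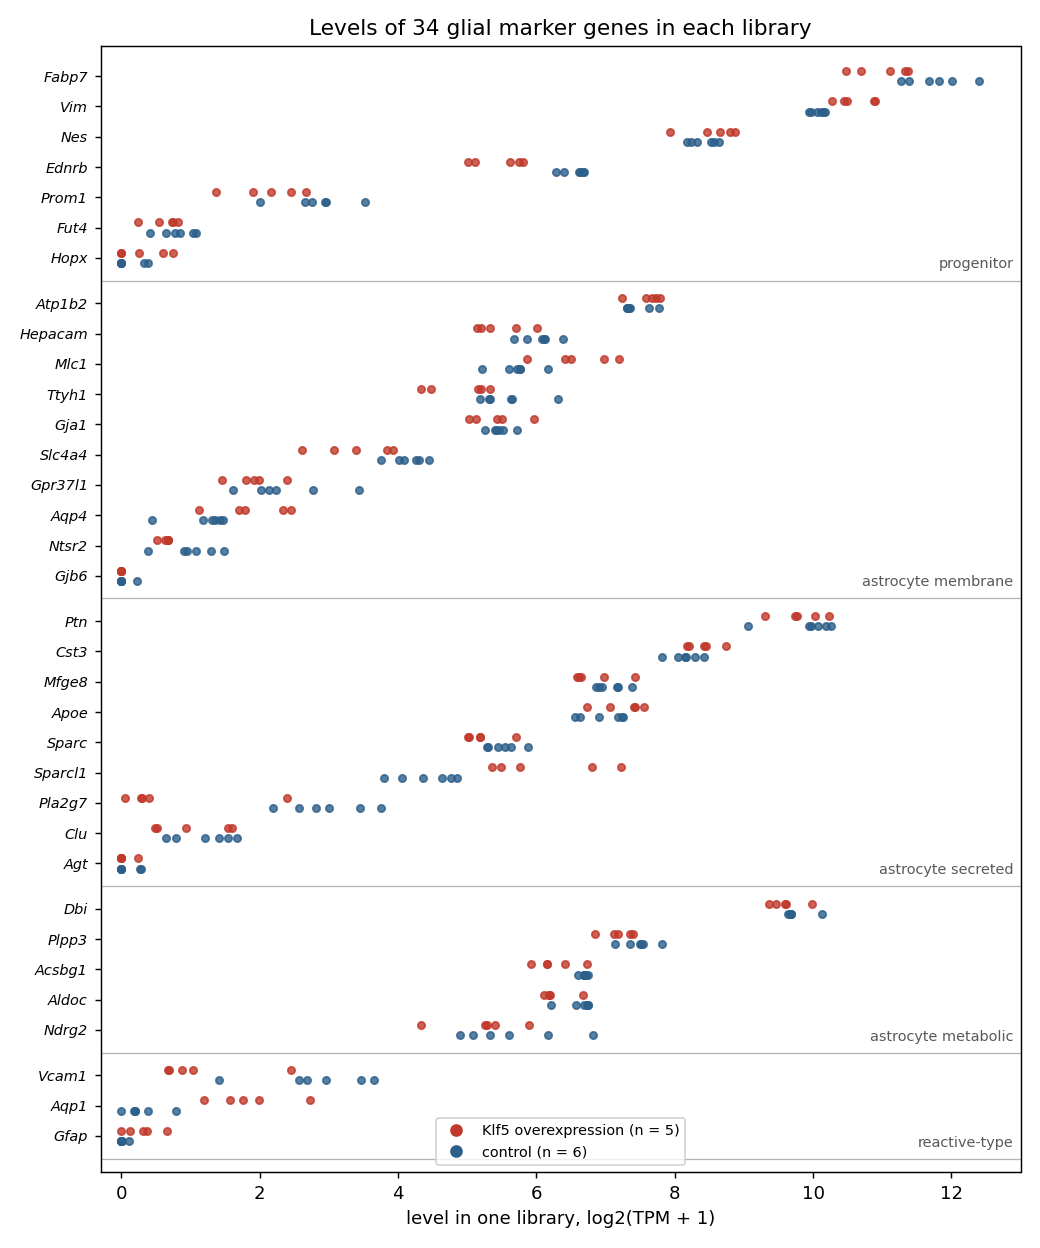
Level of each of the 34 genes in every library as log2(TPM + 1), grouped by role, with Klf5 overexpression above control within each gene. Fabp7, Vim, Ptn, Dbi and Nes lie at the right, and Gfap, Gjb6, Agt and Hopx lie near 0 in both groups.

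Among the progenitor genes, Vim and Ednrb changed in opposite directions. Vim (ENSMUSG00000026728, chromosome 2, 13573927 to 13582826), the vimentin filament gene, had 1888, 1391, 1438, 1909.6 and 1235 TPM in the overexpression libraries, against a lowest value of 979.8, a median of 1089.5 and a highest of 1157 TPM in controls. All 5 overexpression libraries lay above all controls, as did those of 1.99% of tested genes. On the log2 scale the difference was 0.53 ± 0.13 (SE; limma adjusted p = 0.0365). The Vim call was lost in 12 of 20 other settings, the adjusted p lying at 0.0176 to 0.119 on leaving out single libraries.

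Ednrb (ENSMUSG00000022122, chromosome 14, 103814625 to 103844402), the endothelin receptor type B of radial glia, had 53.0, 47.9, 55.2, 31.1 and 33.4 TPM with overexpression, against 76.7, 97.8 and 102 TPM as the lowest, median and highest control. The groups did not overlap, a pattern shown in the lower direction by 1.31% of tested genes. Its log2 fold change of -1.09 ± 0.16 (SE) had a limma adjusted p of 0.00054 and passed in all 20 other settings.

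The other progenitor genes did not pass. Nes, the nestin filament gene, had 467, 354, 401, 445 and 244 TPM with overexpression, against 289, 343 and 398 TPM as the lowest, median and highest control. Overexpression library 5 lay below all controls and 3 others above them, and the log2 fold change was 0.13 ± 0.16 (SE; limma adjusted p = 0.863). Fabp7 had 1655, 1418, 2577, 2664 and 2211 TPM with overexpression, against 2477, 3447 and 5405 TPM in controls. Of these overexpression libraries 3 lay below the lowest control. Its log2 fold change of -0.76 ± 0.22 (SE) had a limma adjusted p of 0.069, with 0.0469 without control library 3 and a range of 0.0462 to 0.33 over the 20 other settings. Prom1, prominin of apical membranes, was at 1.57 to 5.35 TPM with overexpression and 3.01 to 10.5 TPM in controls (log2 fold change -0.70 ± 0.27 SE, limma adjusted p = 0.254). Fut4, the gene of an enzyme able to make the Lewis X sugar epitope, stood at 0.180 to 0.762 TPM with overexpression and 0.326 to 1.10 TPM in controls. Hopx, a homeodomain gene of outer radial glia in primates, stood at 0 to 0.668 TPM with overexpression and 0 to 0.305 TPM in controls. Both were under the filter.

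Within the membrane class, only Mlc1 passed, and Hepacam, the gene of its binding partner, did not. Mlc1 (ENSMUSG00000035805, chromosome 15, 88955884 to 88979007) encodes a membrane protein of astrocyte junctions and endfeet, where it is anchored by the adhesion protein GlialCAM, the product of Hepacam. Mlc1 had 125, 145, 84.0, 89.8 and 57.4 TPM in the overexpression libraries, against 36.3, 52.5 and 71.2 TPM as the lowest, median and highest control. Overexpression library 5 fell inside the control range and 4 lay above it. On the log2 scale the difference was 0.88 ± 0.21 (SE; limma adjusted p = 0.0249). The Mlc1 call was lost in 5 of 20 other settings, among them those without overexpression library 1 (0.072), overexpression library 2 (0.0747) or control library 6 (0.0571), and its adjusted p ran from 0.00482 to 0.13 over all of them.

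Hepacam had 63.3, 39.2, 51.2, 35.7 and 34.2 TPM with overexpression, against 50.3, 67.5 and 82.5 TPM in controls. The log2 difference was -0.57 ± 0.17 (SE; limma adjusted p = 0.0839), and Hepacam was called lower in 6 of 20 other settings, with 0.0185 without overexpression library 1 and a range of 0.0185 to 0.225. Slc4a4, a sodium bicarbonate cotransporter, had 13.3, 14.1, 9.52, 7.43 and 5.11 TPM with overexpression, against 12.4, 17.1 and 20.8 TPM in controls, and its limma adjusted p was 0.0718. It was called lower in 5 of 20 other settings.

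The remaining tested membrane genes showed no call in any setting. Gja1, the main astrocyte connexin, averaged 42.7 ± 11.7 TPM with overexpression and 43.3 ± 4.73 TPM in controls (SD over 5 and 6 libraries, as in the means that follow). Atp1b2, the glial sodium pump subunit, averaged 195 ± 27.0 TPM with overexpression and 176 ± 25.6 TPM in controls. The chloride channel family gene Ttyh1 was at 19.2 to 39.1 TPM with overexpression and 35.4 to 78.2 TPM in controls, with a log2 fold change of -0.67 ± 0.22 (SE; limma adjusted p = 0.131). Gpr37l1, an orphan receptor of astrocytes, was at 1.75 to 4.28 TPM with overexpression and 2.06 to 9.85 TPM in controls. Aqp4, the water channel of astrocyte endfeet, had 2.44, 4.47, 4.04, 1.17 and 2.23 TPM with overexpression, against 0.363, 1.52 and 1.77 TPM as the lowest, median and highest control. Although 4 of 5 libraries lay above all controls, the log2 difference of 0.68 ± 0.28 (SE) missed the threshold (limma adjusted p = 0.288). Ntsr2, a neurotensin receptor, was under the filter at 0.423 to 0.601 TPM with overexpression and 0.309 to 1.79 TPM in controls.

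Of the secreted astrocyte products, Sparcl1 rose and Pla2g7 fell, and 6 tested genes did not pass. Sparcl1 (ENSMUSG00000029309, chromosome 5, 104079111 to 104113733) encodes hevin, a matricellular protein that promotes synapse formation. It had 40.0, 148, 53.5, 110.5 and 43.8 TPM with overexpression, against 12.9, 21.7 and 27.8 TPM as the lowest, median and highest control. The groups did not overlap, and overexpression libraries 2 and 4 stood well above the other 3. The ratio of means was 3.77 and the log2 fold change 1.71 ± 0.31 (SE; limma adjusted p = 0.00326), called in all 20 other settings.

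Pla2g7 (ENSMUSG00000023913, chromosome 17, 43568098 to 43612201), the secreted platelet-activating factor acetylhydrolase, had 0.313, 4.26, 0.223, 0.0328 and 0.217 TPM with overexpression, against 3.55, 6.54 and 12.5 TPM in controls. Overexpression library 2 was inside the control range and the other 4 were under it. The log2 fold change was -2.28 ± 0.39 (SE; limma adjusted p = 0.00231), and the control mean was 7.26 times the overexpression mean, or 37.3 times without overexpression library 2. Pla2g7 met the filter through the control group, so its calls are read as a description.

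Sparc, the founding relative of Sparcl1, had 31.4, 51.4, 35.3, 35.5 and 31.2 TPM with overexpression, against 38.1, 44.1 and 57.8 TPM in controls, with a log2 fold change of -0.29 ± 0.15 (SE; limma adjusted p = 0.469). The lipid carrier Apoe averaged 153 ± 33.5 TPM in overexpression libraries and 126 ± 26.3 TPM in controls. The protease inhibitor Cst3 averaged 341 ± 55.4 TPM in overexpression libraries and 285 ± 40.3 TPM in controls. Apoe and Cst3 are also microglial genes, and the part of microglia, whose genes at 0 are given above, was not tested. Ptn averaged 919.5 ± 212 TPM in overexpression libraries and 996 ± 244 TPM in controls, and Mfge8, which bridges dying cells to phagocytes, 117 ± 32.0 TPM in overexpression libraries and 135 ± 19.5 TPM in controls. The chaperone clusterin gene Clu lay at 0.394 to 2.03 TPM with overexpression and 0.559 to 2.19 TPM in controls. Limma adjusted p of these 5 genes lay between 0.465 (Cst3) and 0.937 (Ptn).

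None of the 5 metabolic genes passed, while all 5 had log2 fold changes below 0, with a median of -0.35 and no change of sign in any other setting. The glycolytic aldolase Aldoc had 101, 72.0, 71.6, 67.9 and 71.5 TPM with overexpression, against 73.0, 104 and 106 TPM as the lowest, median and highest control. Overexpression library 1 stood with the controls and the other 4 below the lowest of them (limma adjusted p = 0.228). Acsbg1, a long-chain fatty acyl-CoA synthetase, had 106, 84.1, 69.9, 70.3 and 59.5 TPM with overexpression, against 95.9, 102 and 106 TPM in controls, the same layout. The log2 difference was -0.41 ± 0.13 (SE; limma adjusted p = 0.119), and the adjusted p was 0.0137 without overexpression library 1, with a range of 0.0137 to 0.259 over the 20 other settings. The lipid phosphatase gene Plpp3 averaged 146 ± 21.3 TPM in overexpression libraries and 179 ± 28.2 TPM in controls. Dbi averaged 787 ± 136 TPM in overexpression libraries and 863 ± 124 TPM in controls. The stress-responsive Ndrg2 was at 19.1 to 58.4 TPM with overexpression and 28.9 to 112 TPM in controls. The limma adjusted p was 0.353 for Plpp3, 0.812 for Dbi and 0.72 for Ndrg2.

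The reactive-type genes split. Aqp1 (ENSMUSG00000004655, chromosome 6, 55336432 to 55348555), a water channel of the choroid plexus that is also reported in reactive astrocytes, had 1.29, 2.95, 2.37, 5.63 and 1.97 TPM with overexpression, against 0, 0.144 and 0.720 TPM as the lowest, median and highest control. The groups did not overlap, and every control was under 1 TPM. The log2 fold change was 1.56 ± 0.28 (SE; limma adjusted p = 0.00343), and the ratio of means was 11.7, or 19.4 without control library 3. The Aqp1 call was made in each of the 14 other settings in which the gene met the filter, none of which left out an overexpression library. In the main test Aqp1 met the filter through the overexpression group alone and could only be called higher. Its calls are therefore read as a description. Choroid plexus and ependymal genes summed to 12.1 to 32.7 TPM with overexpression and 21.2 to 28.6 TPM in controls, most of it Otx2. Ttr, the defining choroid plexus transcript, was at 0 in every library. Folr1 of the same list was at 0 to 0.578 TPM with overexpression and at 0 in every control. Foxj1 went the other way, with means of 5.10 TPM with overexpression and 7.82 TPM in controls. The part of such cells in the Aqp1 values was not tested.

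Vcam1 (ENSMUSG00000027962, chromosome 3, 116109949 to 116129688), an adhesion molecule of adult neural stem cells, endothelium and inflamed astrocytes, had 4.44, 1.04, 0.839, 0.599 and 0.614 TPM with overexpression, against 1.66, 6.12 and 11.5 TPM in controls. Overexpression library 1 lay inside the control range and the other 4 under it. The log2 fold change was -1.65 ± 0.39 (SE; limma adjusted p = 0.0246), a call that was lost in 8 of 19 other settings, the adjusted p lying at 0.00345 to 0.0761 on leaving out single libraries. The control mean was 4.47 times the overexpression mean, or 8.71 times without overexpression library 1. Vcam1 met the filter through the control group, so its calls are read as a description. Endothelial genes summed to 1.06 to 2.43 TPM with overexpression and 1.10 to 2.86 TPM in controls. Their part in the Vcam1 values was not tested.

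Gfap had 0.571, 0.292, 0.0841, 0.239 and 0 TPM with overexpression and at most 0.082 TPM in controls. An exact two-sided permutation test gave p = 0.0346 for Gfap, 0.039 for Ntsr2, 0.234 for Fut4 and 0.303 for Hopx, the 4 genes under the filter with a value above 0 in at least 5 libraries. These p are not adjusted. In limma without a filter, adjusted over all genes, none of the 6 genes under the filter passed, with 0.356 for Gfap and 0.591 for Ntsr2.

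**Figure D3:**
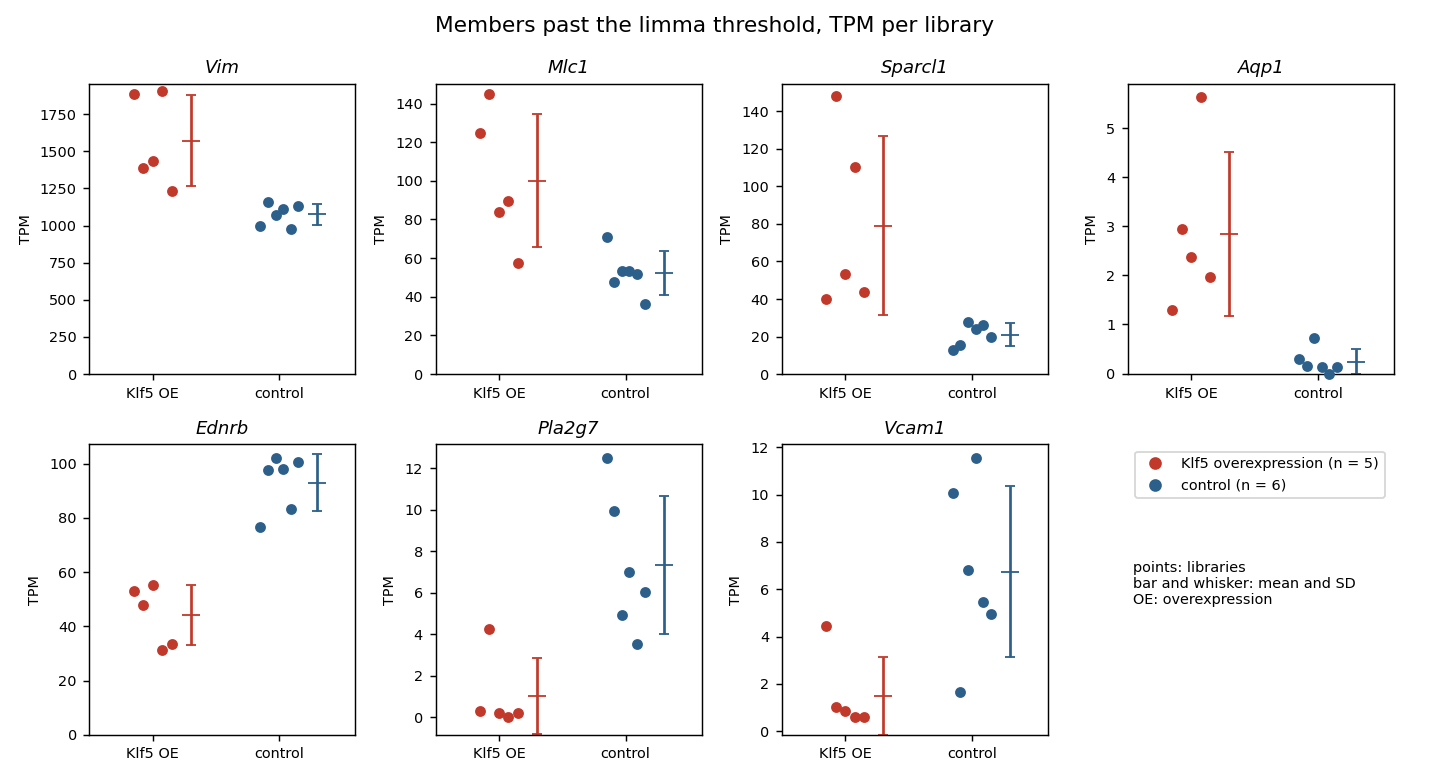
TPM of the 7 genes past the limma threshold in each library, Klf5 overexpression left of control, with the mean and SD beside the points on a linear scale. Vim, Sparcl1, Aqp1 and Ednrb show groups that do not overlap, whereas 1 overexpression library lies inside the control range for Mlc1, Pla2g7 and Vcam1.

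Ratios of gene pairs within a library do not depend on how the library was scaled. Such ratios were formed for 5 pairs of related genes, chosen after their values were seen, and are given as a description. Mlc1 stood at 1.97, 3.70, 1.64, 2.52 and 1.68 times Hepacam in the overexpression libraries, against 0.543, 0.806 and 1.03 times as the lowest, median and highest control. Mlc1 thus exceeded its partner in every overexpression library and in 1 control. Sparcl1 stood at 1.27, 2.88, 1.51, 3.11 and 1.41 times Sparc with overexpression, against 0.271, 0.485 and 0.651 times in controls. The more abundant of these relatives was Sparcl1 in every overexpression library and Sparc in every control.

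The Aqp1 to Aqp4 ratio was 0.528, 0.660, 0.585, 4.83 and 0.882 with overexpression, against 0, 0.168 and 0.460 in controls, and overexpression library 4 was the single library in which Aqp1 was the higher. Fabp7 stood at 0.877, 1.02, 1.79, 1.40 and 1.79 times Vim with overexpression, against 2.31, 3.46 and 4.87 times in controls, with no overlap. The Vim to Nes ratio was 4.04, 3.93, 3.58, 4.29 and 5.07 with overexpression, against 2.79, 3.03 and 3.85 in controls. Here the groups overlapped, through overexpression library 3.

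**Figure D4:**
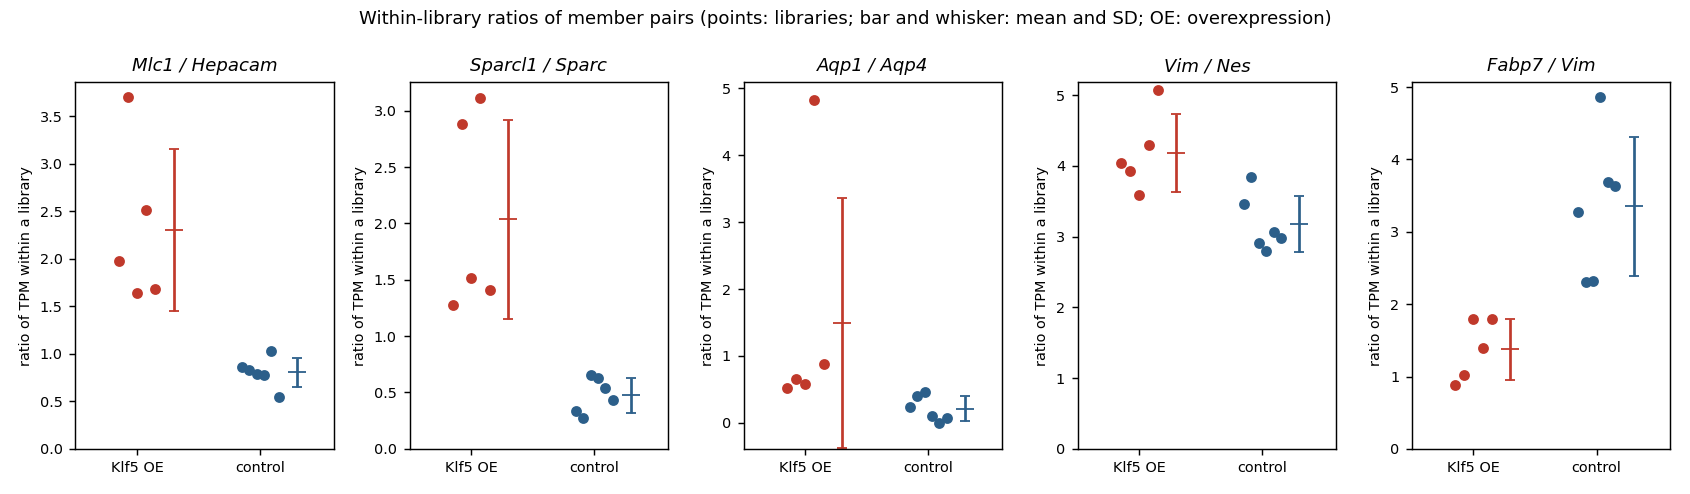
Ratio of TPM of 2 genes within each library for 5 pairs, Klf5 overexpression left of control, with mean and SD beside the points. The Mlc1 to Hepacam, Sparcl1 to Sparc, Aqp1 to Aqp4 and Fabp7 to Vim ratios do not overlap between groups, and the Vim to Nes ratios do.

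Other genes of the same 3 themes were counted in the same test. These lists too were chosen with earlier results of these data known, so their counts are read as a description. Of 25 tested further radial glia genes, 7 fell and 1 (Hes1) rose, beside 1.43% of all tested genes that fell and 2.29% that rose. Their median log2 fold change was -0.24, against -0.04 over all tested genes. Of the 7 lower genes, Tnc and Msi1 were called in 10 and 7 of 20 other settings, and the rest in all 20. Hes1 was called in 19 of 20. The lower genes were led by Pdpn, podoplanin, at 8.83 to 22.9 TPM with overexpression and 30.7 to 41.3 TPM in controls (log2 fold change -1.17 ± 0.19 SE, limma adjusted p = 0.00183). Notch3, Sox3 and Slc1a3 followed, with log2 fold changes of -0.89, -0.70 and -0.76. Sox2, the stem cell transcription factor, averaged 359.9 ± 64.3 TPM in overexpression libraries and 377 ± 47.5 TPM in controls and did not pass (limma adjusted p = 0.922).

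Of 29 tested further astrocyte genes, 9 fell and 4 rose, beside the same shares of all genes (1.43% and 2.29%), and the median log2 fold change was -0.41. By smallest p the leading genes were Cbs, which makes cystathionine, and Mt3, a brain metallothionein, with log2 fold changes of -2.40 and -2.01, and Grin2c and S100b, with 2.06 and 2.19. Grin2c, an NMDA receptor subunit, was at 57.6 to 113 TPM with overexpression and 11.7 to 32.0 TPM in controls (limma adjusted p = 3.88e-05). S100b, a calcium-binding protein, was at 5.06 to 17.3 TPM with overexpression and 0.271 to 2.04 TPM in controls, and reached 1 TPM in 5 overexpression and 2 control libraries. It met the filter through the overexpression group, so its place in the count is read as a description. Slc1a3, the glial glutamate transporter, stood in this list too. Of the 9 lower genes, Id3, Slc6a11, F3 and Htra1 were called in 4, 10, 18 and 19 of 20 other settings. The rest, and the 4 higher genes, were called in all 20.

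Of 36 further genes of reactive astrocytes, 10 could be tested, of which 5 rose and 0 fell, beside 2.29% of all tested genes that rose. Of the 5, Cd109 reached 1 TPM in 5 overexpression and 0 control libraries, and Emp1 and Serpina3n each in 5 overexpression libraries and 1 control. These 3 genes met the filter through the overexpression group and could only be counted as higher, so the count is read as a description. Cd44 and S100a10 reached 1 TPM in all 11 libraries. S100a10, a partner of annexin A2, was at 308 to 543 TPM with overexpression and 86.4 to 126 TPM in controls (log2 fold change 1.96 ± 0.15 SE, limma adjusted p = 7.03e-07). Emp1, an epithelial membrane protein gene, averaged 11.7 ± 6.35 TPM with overexpression and 0.500 ± 0.945 TPM in controls (SD; log2 fold change 3.01 ± 0.43 SE, limma adjusted p = 0.000483). The serpin gene Serpina3n was at 2.07 to 7.16 TPM with overexpression and 0 to 1.45 TPM in controls (log2 fold change 1.89 ± 0.30 SE, limma adjusted p = 0.00136), and the hyaluronan receptor Cd44 had a log2 fold change of 1.59. The defining reactive genes Lcn2 and Aspg were at 0 in every library, and Osmr and C3 were at or near 0. The rising genes S100a10, Emp1, Serpina3n and Cd44 are also used outside astrocytes.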

How the data were processed

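RNA sequencing libraries of neurospheres, 5 with Klf5 overexpression and 6 controls, each taken as 1 embryo since the labels' protocols name as many embryos, were analysed from 1 deposited table of TPM values, which the authors made per library. Tools named, per the submitters' processing notes, are DESeq2, HTSeq, StringTie and HISAT2, with build GRCm38.p5; the sources used here give no versions, roles, annotation or strand setting. Per the labels' protocols a directional and a second library kit were used, with no record of which library had which. TPM keeps no depth, so sequencing depth is unknown and precision rests on the spread between libraries. None of the 34 genes overlapped another tested gene.

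Symbols were matched for 53255 of 53453 rows, and gene coordinates are those of GENCODE M21 on GRCm38. Genes reaching 1 TPM in 5 or more libraries were tested on log2(TPM + 1) with limma 3.58.1 in R 4.3.3, with a variance trend, two-sided, with Benjamini-Hochberg adjustment over all 13549 genes at 0.05. Fold changes on this scale understate low genes. Exact permutation tests used scipy 1.17.1, doubling the smaller tail, and cannot go below 0.00433. All 34 members are named, and further genes by smallest p, up to 4 per list, with others where a count or a limit needs them. The members and lists were chosen with earlier results of these data known. Alternatives were another pseudocount (0.1), no filter or 5 TPM, other scalings (trimmed mean, quantile, removal of ribosomal RNA-like and mitochondrial rows), no trend, array weights, a replicate block and leaving out each library. Limma p-values weigh the difference between groups against the spread between these libraries, with variances partly shared across genes.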

Additional observations from a re-analysis of the deposited data

Results flagged for a closer look

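The groups of all 28 tested genes were examined for a library far from the rest, and 9 of 56 groups held one. The rule was set to flag about 1 in 20 groups by chance. The groups share the same 11 libraries and are not independent, so no excess is read from this count. In the overexpression libraries the flagged values were Pla2g7 in library 2, at 4.26 TPM with the next at 0.313, and Vcam1 in library 1, at 4.44 TPM with the next at 1.04. Aldoc in library 1 had 101 TPM with the next at 72.0, and Sparc in library 2 had 51.4 TPM with the next at 35.5. Among the controls, library 4 stood high for Ttyh1 at 78.2 TPM, with the next at 49.1, and for Dbi at 1115 TPM, with the next at 819. Control library 2 stood low for Ptn at 534 TPM, with the next at 979, and for Aqp4 at 0.363 TPM, with the next at 1.27. Control library 5 stood low for Aldoc at 73.0 TPM, with the next at 94.4.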

How the results depend on the processing

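Of the 7 called genes, 4 (Sparcl1, Aqp1, Ednrb and Pla2g7) were called in every other setting in which they could be tested. Aqp1 could not be tested in 6 settings, where it missed the filter. These include every setting that left out an overexpression library, so the Aqp1 calls are read as a description. Pla2g7 and Vcam1 met the filter through the control group, so their calls are read as a description too. None of the 7 changed sign. Vim, Mlc1 and Vcam1 lost the call in 12, 5 and 8 settings. Of the 21 genes not called, 17 stayed so in every setting, and Fabp7, Hepacam, Slc4a4 and Acsbg1 gained a call in 3, 6, 5 and 3. Higher genes of the panel numbered 4, and 2 without a filter or without a variance trend, and 1 to 3 on leaving out single libraries (1 without overexpression library 1, and 2 without overexpression library 2, 3 or 4 or control library 6). Lower genes numbered 3, and 5 with quantile normalization, 6 without ribosomal RNA-like and mitochondrial rows and 6 with array weights, and 2 to 6 on leaving out single libraries (6 without overexpression library 1). Over all genes, 310 rose, 206 to 313 on leaving out single libraries (206 without overexpression library 4), and 194 fell, 117 to 212 likewise (117 without overexpression library 2, 129 without overexpression library 5 or control library 6, 125 without control library 3), with 95 without a filter, 311 with quantile normalization and 293 without those rows. The log2 fold change of Gja1 ran from -0.19 to 0.043 on leaving out single libraries, above 0 without overexpression library 3 (0.018) or 5 (0.043), and that of Ptn from -0.27 to 0.027, above 0 without overexpression library 5 (0.027). Neither was called.

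Same-numbered libraries shared only a number. Their deviations correlated at 0.30 for number 1 and at -0.04 to 0.06 for the other 4. With a replicate block on the 10 libraries numbered 1 to 5, 288 genes rose and 138 fell, with 5 lower genes in the panel; without the block the same libraries, which are those without control library 6, gave 277 and 129, with 2 higher genes in the panel. With the block, Vim was not called (adjusted p = 0.102). Only libraries 1 found their best match in their own number.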

Other observations

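Within each group, libraries did not take turns evenly. Overexpression library 1 had the highest value of its group for 13 of the 28 tested genes, and overexpression library 5 for 0. Overexpression library 5 had the lowest value for 14 of the 28, and its listed TPM added up to 730832, the lowest of all libraries. Among controls, library 4 was highest for 11 of 28 genes, Nes, Fabp7, Ttyh1, Gpr37l1, Cst3, Mfge8, Aldoc, Ndrg2, Dbi, Plpp3 and Vcam1. The summed TPM of the panel was 11003 in that library, against 6903 to 9137 in the other controls.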
